A study of Mus musculus with 8 samples.

Results

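The aminoacyl-tRNA synthetases join each amino acid to its tRNA, the step that makes the genetic code readable to the ribosome. A mammalian cell keeps a cytosolic set and a mitochondrial set, nearly all encoded by separate nuclear genes, and the mitochondrial enzymes are named with a final 2. Several cytosolic synthetase genes are known targets of ATF4, the transcription factor of the amino acid and integrated stress responses. Genes were taken by their symbol, a capital letter followed by ars, ars1 or ars2, together with *Farsa*, *Farsb*, *Eprs* and *Pstk*. This gave 38 genes of the 28712 listed, namely 20 cytosolic synthetases, 17 mitochondrial synthetases and *Pstk*, which encodes the kinase that acts on seryl-tRNA(Sec) on the way to selenocysteine. The rule uses symbols only, although the set was chosen with earlier results of these data known. Each gene had a single row in both tables. All 38 passed the minimum mean of 10 normalised reads and were tested among 13941 genes.

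RNA came from 4T1 cells, a mouse mammary tumor line used as a model of triple-negative breast cancer, kept at 1% O2 according to the labels. Purified single-domain antibodies (sdAb) were added at 0.5 μg/mL. Values were available for 3 groups of 2 libraries. Cells of the first were with sdAb-Con during 48 h, and those of the other groups were with sdAb#07.81 during 24 h or 48 h. sdAb#07.81 binds NUPR1, a stress-induced chromatin protein, and sdAb-Con is the control antibody. The untreated Con group was not analysed here. No sdAb-Con group at 24 h was labelled, so in the comparison of sdAb-Con (48 h) against sdAb#07.81 (24 h) antibody and time cannot be told apart. Between the 2 times of sdAb#07.81, time in culture and time with the antibody cannot be told apart either.

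Read counts per library were solved from the deposited means over 4 libraries, as described under the processing, and totalled 15081344 to 18085572 reads a library. The library numbers 1 and 2 only name the solved libraries and are not the replicate numbers of the labels. *Nupr1* itself, a check on the target at the RNA level only, had 2918.5 and 2919.1 normalised reads in sdAb#07.81 (48 h), 3575.4 and 2998.2 in sdAb-Con (48 h), and 1555.9 and 2136.1 in sdAb#07.81 (24 h). The 7 epithelial markers summed to between 47370 and 60510 normalised reads, from the lowest to the highest library. Of the 7 immune markers, the lineage-defining *Cd3e*, *Cd79a*, *Ptprc* and *Itgam* stayed below 5 normalised reads in every library, but *Cd68*, a lysosomal macrophage marker, had 270.0 and 237.1 at 24 h, 1041.1 and 646.3 in sdAb-Con (48 h) and 500.5 and 651.8 in sdAb#07.81 (48 h). Of the 3 fibroblast markers, *Pdgfra* went from 957.0 and 1246.9 at 24 h to between 609.2 and 654.8 at 48 h, while *Dcn* and *Lum* were at or below 47.8 in every library, with 24 h libraries of 47.8 and 2.87 for *Dcn* and of 34.9 and 0 for *Lum*. Their part in the synthetase values was not tested. Of the receptors that the cell type label implies are low, *Pgr* was at 1.84 or less, whereas *Esr1* lay between 270.9 and 452.1 and *Erbb2* between 543.1 and 882.7. One pair of replicates stood apart. Over 13780 genes with a known length, the log2 ratio of library 1 to library 2 of sdAb#07.81 (48 h) had a Spearman's rho of 0.37 with the length of the longest transcript, against -0.0735 and -0.0817 within the other groups. The log2 fold change of sdAb#07.81 (48 h) against sdAb-Con (48 h) had a rho of 0.45 with length. Genes share their libraries, so these values are descriptions.

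Promoter sequences were available from RefSeq (GRCm38.p6) for 28 of the 38 genes, 13 cytosolic, 14 mitochondrial and *Pstk*. They were searched on both strands, from 250 bases before to 50 bases after the start, for several letter strings. The string TGATGNAA, in which N is any base, resembles the composite element that ATF4 binds with C/EBP proteins. It was found in *Aars*, *Gars*, *Iars*, *Tars* and *Yars*, in none of the 14 mitochondrial genes, and in 3.97% of all 32851 promoters. A window for each gene is shown because all 5 genes are cytosolic synthetases on the list of ATF4-linked genes described further on. Each line is 30 bases of the coding strand, 5′ to 3′, and the capitals mark the match, which is the reverse complement of the string in every line except that of *Yars*.
Aars, chr8:111033840-111033869 (+): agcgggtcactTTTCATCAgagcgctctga
Gars, chr6:55037960-55037989 (+): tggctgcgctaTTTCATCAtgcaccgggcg
Iars, chr13:49682126-49682155 (+): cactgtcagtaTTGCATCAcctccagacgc
Tars, chr15:11399655-11399684 (-): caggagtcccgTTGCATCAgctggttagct
Yars, chr4:129189895-129189924 (+): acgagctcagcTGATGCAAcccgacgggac
Among the other strings searched, TGATGNAAN, which overlaps the first, marked the same 5 genes. The heat shock type TTCNNNGAA was found in *Aars*, *Kars* and *Nars2* and in 8.3% of all promoters. A string of the interferon-stimulated response element type was found in *Qars* and in 3.44% of all promoters. A match is a run of letters in this window and was not tested as a binding site.

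Cytosolic synthetases were expressed far above the mitochondrial ones. Per kb of the longest transcript, the median over the 20 cytosolic genes lay between 1485 and 1664 normalised reads in the 6 libraries, and that over the 17 mitochondrial genes between 85.2 and 111.6. The ratio of the medians was 16.4 ± 1.75 (SD, n = 6 libraries) and ranged from 13.7 to 18.1. With the median transcript length in place of the longest, it was 20.4. By this length, *Nars*, for asparagine, had the highest mean level, 4180 normalised reads per kb, followed by *Gars* with 3033, *Sars* with 3020 and *Kars* with 2963. These last 3 differed in level by less than the range over libraries of each, which for *Gars* ran from 2709 to 3411. The order of single genes depends on the length chosen: per kb of the median transcript length *Aars* was highest with 13260, then *Nars* with 9455 and *Vars* with 9389, and *Kars* had 3463. *Gars* and *Kars* are the synthetases whose single genes also make the mitochondrial enzyme, and no *Gars2* or *Kars2* row was found. *Farsa*, the α subunit of the cytosolic phenylalanine enzyme, was the lowest cytosolic gene with 277.5 per kb, below its partner subunit *Farsb* with 878.2.

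Among the mitochondrial genes, *Lars2* was set apart with a mean of 2857 normalised reads per kb of the longest transcript, a level otherwise seen only among cytosolic genes. Its level differed between groups, with 2001 and 1988 per kb at 24 h, 2250 and 2665 in sdAb-Con (48 h), and 4800 and 3440 in sdAb#07.81 (48 h). The next mitochondrial gene by this length, *Iars2*, stood at 337.9 per kb. *Mars2* and *Ears2* had the lowest levels, 28.1 and 27.9 per kb, and did not differ beyond their spread over libraries. The plot of levels per kb shows the step between the compartments and its exceptions, *Lars2* above and *Farsa* below.

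**Figure D1:**
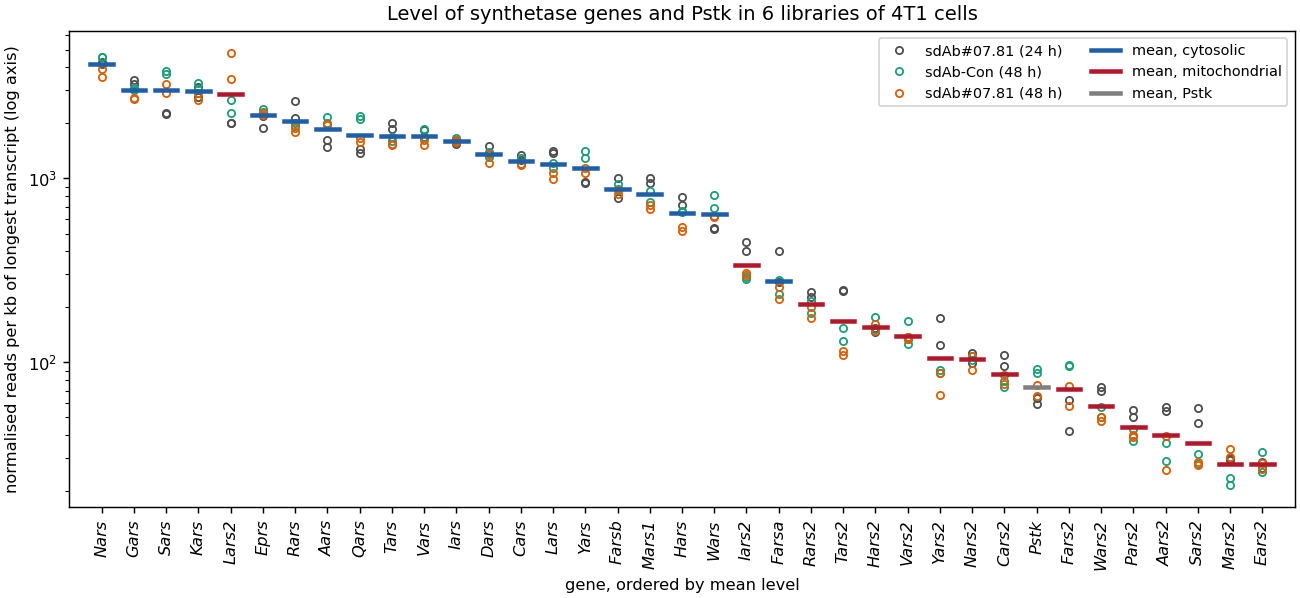
Normalised reads per kb of the longest transcript (log axis) for the synthetase genes shown and *Pstk*, ordered by mean; open circles are the 6 libraries coloured by group and bars are means coloured by compartment. The cytosolic genes except *Farsa*, at 277.5, lie above the mitochondrial genes except *Lars2*, at 2857.

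The first comparison over time, sdAb#07.81 at 48 h against 24 h, asks how the set moved while the antibody was present. At an adjusted p under 0.05 in limma-voom with Benjamini-Hochberg adjustment over all tested genes, 14 of the 38 genes fell and 3 rose, while 22.1% of all tested genes fell and 21.1% rose. Of the 20 cytosolic genes, 7 fell, 2 rose and 11 did not pass the threshold. Of the 17 mitochondrial genes, 7 fell, 1 rose and 9 did not pass. The median log2 fold change was -0.14 for the cytosolic genes and -0.34 for the mitochondrial genes, beside -0.01 over all genes tested. In bulk RNA, fewer cells of a kind and less RNA per cell cannot be told apart.

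The mitochondrial decreases were the largest. *Tars2* (ENSMUSG00000028107), the mitochondrial threonine enzyme, had 894.6 and 881.6 normalised reads at 24 h and 396.2 and 415.6 at 48 h. Its libraries did not overlap, and its log2 fold change was -1.13 ± 0.13 (SE) (adjusted p = 2.24e-06). *Yars2*, for tyrosine, had 489.6 and 346.1 at 24 h against 186.6 and 243.9 at 48 h, with replicates spread widely in both groups. Its log2 fold change was -0.95 ± 0.19 (SE) (adjusted p = 0.000462). *Sars2*, the mitochondrial serine enzyme, went from 105.6 and 87.0 to 53.2 and 51.4 normalised reads, a log2 fold change of -0.87 (adjusted p = 0.0112). *Aars2*, for alanine, went from 191.0 and 181.7 to 132.4 and 86.4, a log2 fold change of -0.79 (adjusted p = 0.00695). Both are low genes, and their 48 h values lay below all 24 h values. Further mitochondrial decreases were *Wars2*, for tryptophan, with -0.54, and *Iars2*, for isoleucine, with -0.50. *Iars2* shares 36.7% of the 40-base stretches of its longest transcript with the oppositely placed *Rab3gap2*, whose own log2 fold change was 0.14 (adjusted p = 0.323), and whether counting used the strand is not stated.

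*Lars2* (ENSMUSG00000035202), for leucine, moved the other way. It had 7793.2 and 7741.2 normalised reads at 24 h and 18691.2 and 13393.6 at 48 h, a log2 fold change of 1.03 ± 0.13 (SE) (adjusted p = 7.02e-06). Its counts were the least certain of the set. The 2 deposited means of *Lars2* had 2 whole-number solutions, and the solution whose replicates agreed within 2-fold was kept, a limit widened after *Lars2* had been seen to be left out. In the other solution the 48 h libraries stood at 4354.3 and 30271.7 normalised reads and the 24 h libraries at 7798.5 and 5110.9. The log2 fold change was then 0.86 and did not pass (adjusted p = 0.302). The group mean at 48 h was the higher one in both solutions, 16042.4 against 7767.2 and 17313 against 6454.7. *Gm15564*, a predicted gene, shares 13 of the 40-base stretches with *Lars2*, with 0.337% of those of the longest *Lars2* transcript shared. It was looked up after these values were seen and had 244.0 and 118.1 normalised reads at 48 h against 84.5 and 75.5 at 24 h. How reads were split between them was not tested.

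The cytosolic changes were smaller. *Hars*, for histidine, fell from 1562.3 and 1418.0 to 1021.8 and 1082.8 normalised reads, a log2 fold change of -0.50 ± 0.12 (SE) (adjusted p = 0.00165). *Farsa* fell by 0.48 on the log2 scale, *Mars1*, for methionine, by 0.48, *Lars*, for leucine, by 0.43, *Rars*, for arginine, by 0.36, *Tars*, for threonine, by 0.34 and *Gars*, for glycine, by 0.29. *Sars*, the serine enzyme whose product also starts the selenocysteine route, rose from 7976.9 and 8072.0 to 10406 and 11547 normalised reads. Its log2 fold change was 0.45 ± 0.11 (SE) (adjusted p = 0.00206). *Aars*, for alanine, went from 8472.9 and 9296.0 to 11227 and 11263, a log2 fold change of 0.34 (adjusted p = 0.0143). *Vars2*, the mitochondrial valine enzyme, and *Iars* moved least, with log2 fold changes of 0.01 each and standard errors of 0.14 and 0.10. *Wars*, the cytosolic tryptophan enzyme and a known interferon-inducible gene, had 1550.4 and 1527.0 normalised reads at 24 h and 1778.8 and 1798.0 at 48 h. Its libraries did not overlap, but its log2 fold change of 0.22 did not pass the threshold (adjusted p = 0.131).

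Of the 17 calls, *Hars*, *Iars2*, *Lars*, *Mars1*, *Sars*, *Tars2* and *Yars2* passed under each alternative scaling, filter, fit and set of libraries. With a fold change of at least 1.5 also required, 5 of the 17 calls passed, *Tars2* and *Yars2* among them and *Hars*, *Iars2*, *Lars*, *Mars1* and *Sars* not. *Lars2* lost its call only with its other whole-number solution. Without library 1 of sdAb#07.81 (48 h), 11 genes passed, and *Farsa*, *Gars*, *Rars*, *Sars2* and *Tars* were among those that no longer did. Without library 2 of that group 11 passed, and *Aars*, *Aars2*, *Gars*, *Sars2* and *Wars2* were among those lost. Without library 1 of sdAb#07.81 (24 h) 10 passed, and *Aars*, *Farsa*, *Gars*, *Rars*, *Sars2* and *Tars* were among those lost. *Farsa* then had a log2 fold change of -0.21 and *Rars* of -0.21.

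**Figure D2:**
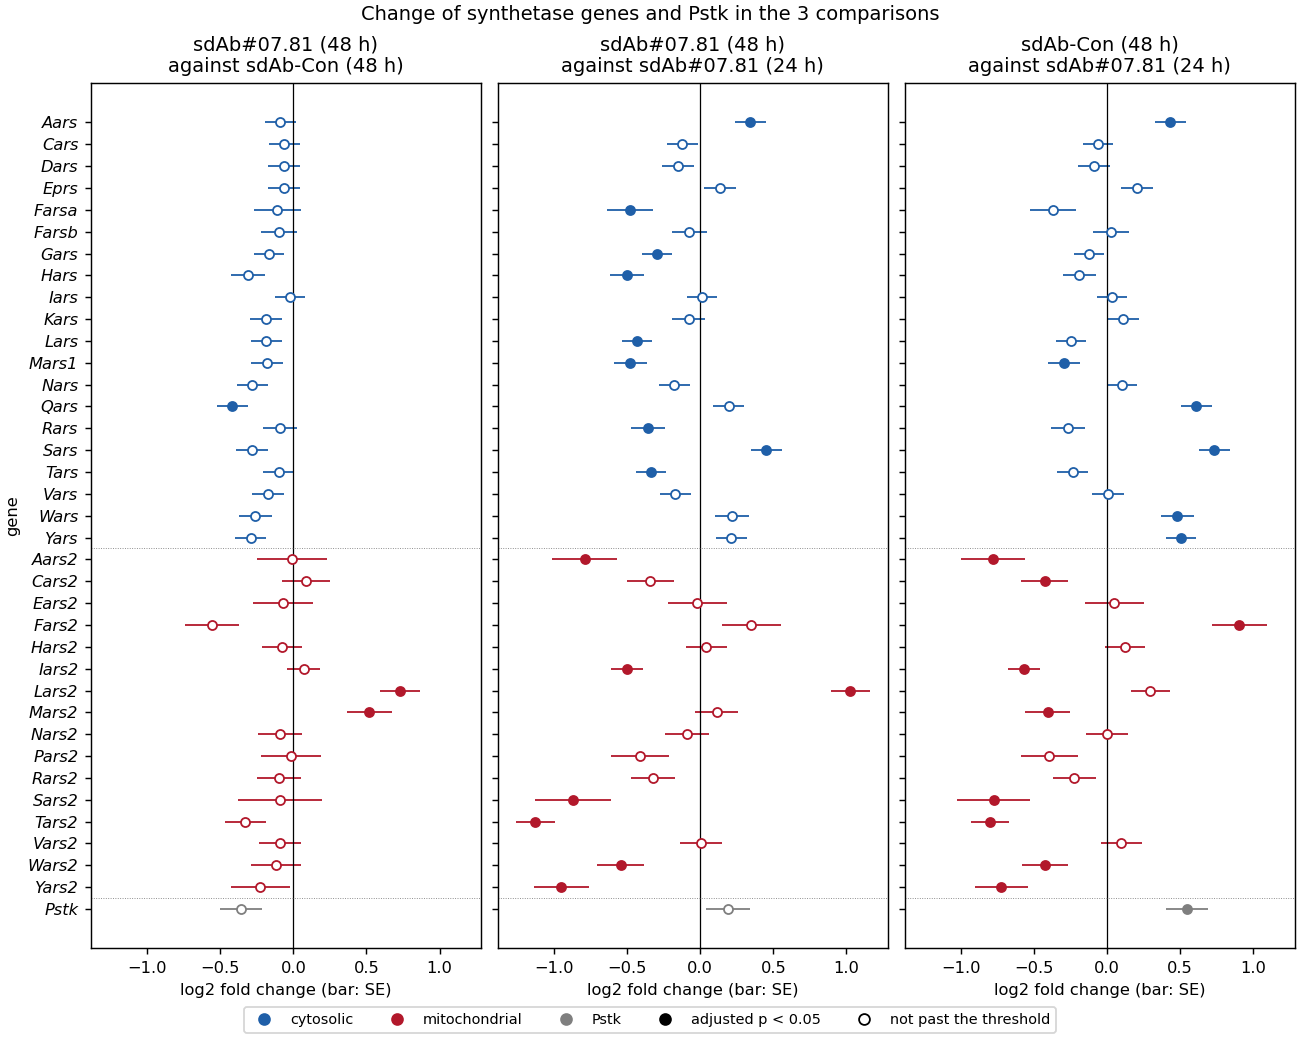
Log2 fold change (point) and standard error (bar) of the synthetase genes shown and *Pstk* in the 3 comparisons; filled points passed an adjusted p of 0.05 and dotted lines separate cytosolic genes, mitochondrial genes and *Pstk*. Against sdAb#07.81 (24 h), *Tars2* is at -1.13 and -0.80 in the middle and right panels, and against sdAb-Con (48 h) the cytosolic points lie from -0.42 to -0.02, though 1 of 20 turns positive under either other scaling.

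The same 24 h libraries served as the reference for sdAb-Con (48 h), so the 2 comparisons against 24 h are not independent. In sdAb-Con (48 h), 9 of the 38 genes were lower and 7 higher than in sdAb#07.81 (24 h), while 26.1% of all tested genes were lower and 25.4% higher. Calls are given by compartment, with no test of the difference between compartments. Of the 20 cytosolic genes, 5 were higher, 1 was lower and 14 did not pass. Of the 17 mitochondrial genes, 8 were lower, 1 was higher and 8 did not pass. Medians of the log2 fold change were 0.02 for cytosolic and -0.40 for mitochondrial genes, beside 0.00 over all genes tested. The cytosolic side depended on the processing. Once a trend over transcript length, GC and abundance was subtracted, 6 cytosolic genes were higher and 7 lower, with a median of -0.13. The mitochondrial genes were then again 1 higher and 8 lower, with a median of -0.30. They were not the same genes, as *Mars2* and *Wars2* no longer passed and *Pars2* and *Rars2* newly did.

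The cytosolic genes above their 24 h level were *Sars*, *Qars*, *Yars*, *Wars* and *Aars*. *Sars* had 13611 and 13075 normalised reads in sdAb-Con (48 h), a log2 fold change of 0.73 ± 0.11 (SE) (adjusted p = 1.41e-05). *Qars* (ENSMUSG00000032604), for glutamine, had 6705.5 and 6457.1 against 4218.5 and 4403.2 at 24 h, a log2 fold change of 0.61 ± 0.10 (SE) (adjusted p = 8.13e-05). *Yars*, for tyrosine, had 3735.4 and 4084.4 against 2739.8 and 2763.4 (log2 fold change 0.51, adjusted p = 0.000579). *Wars* had 1986.5 and 2317.4 normalised reads and a log2 fold change of 0.48 (adjusted p = 0.00154). *Aars* had 11515 and 12420 and a log2 fold change of 0.43 (adjusted p = 0.0024). In each of these 5 genes both sdAb-Con libraries were above both 24 h libraries, and each call passed under each alternative scaling, filter, fit and set of libraries. *Yars*, *Wars* and *Aars*, at 1.42-fold, 1.39-fold and 1.35-fold, did not reach a fold change of 1.5. *Mars1* was the cytosolic gene that was lower, with a log2 fold change of -0.30 (adjusted p = 0.0298), and it did not pass without library 1 of either group. Its annotated span overlaps *Ddit3* on the other strand by 68 bases, and *Ddit3* had 8987 and 7400.6 normalised reads in sdAb-Con (48 h) against 922.1 and 884.5 at 24 h.

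Among the mitochondrial genes, *Tars2* had 473.1 and 550.4 normalised reads in sdAb-Con (48 h), below the 24 h libraries, with a log2 fold change of -0.80 ± 0.13 (SE) (adjusted p = 4.43e-05). *Aars2* (-0.78), *Sars2* (-0.78), *Yars2* (-0.73), *Iars2* (-0.57), *Cars2* (-0.43), *Wars2* (-0.42) and *Mars2* (-0.41) were also lower on the log2 scale. Without library 1 of sdAb-Con (48 h), 10 genes passed, and *Aars2*, *Cars2*, *Mars1*, *Mars2*, *Sars2* and *Wars2* did not. *Mars2* turned to 0.31 once the trend was subtracted (adjusted p = 0.0843). *Fars2* (ENSMUSG00000021420), the mitochondrial phenylalanine enzyme, was higher, with 324.7 and 321.1 normalised reads against 142.4 and 209.4 at 24 h. Its log2 fold change was 0.91 ± 0.19 (SE) (adjusted p = 0.000614), and in sdAb#07.81 (48 h), at 193.9 and 249.4, it overlapped the 24 h libraries. *Nars2* and *Vars* moved least, both with a log2 fold change of 0.00 and with standard errors of 0.15 and 0.11. *Pstk* had 485.6 and 461.8 normalised reads in sdAb-Con (48 h) against 312.3 and 336.6 at 24 h, a log2 fold change of 0.55 ± 0.14 (SE) (adjusted p = 0.00388). *Pstk* shares 87.1% of the 40-base stretches of its longest transcript with *Ikzf5* and its span overlaps *Fgfr2* by 23342 bases, both on the other strand. *Fgfr2* was lower in the same comparison, with a log2 fold change of -1.35, and *Ikzf5* had -0.36 (adjusted p = 0.152).

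**Figure D3:**
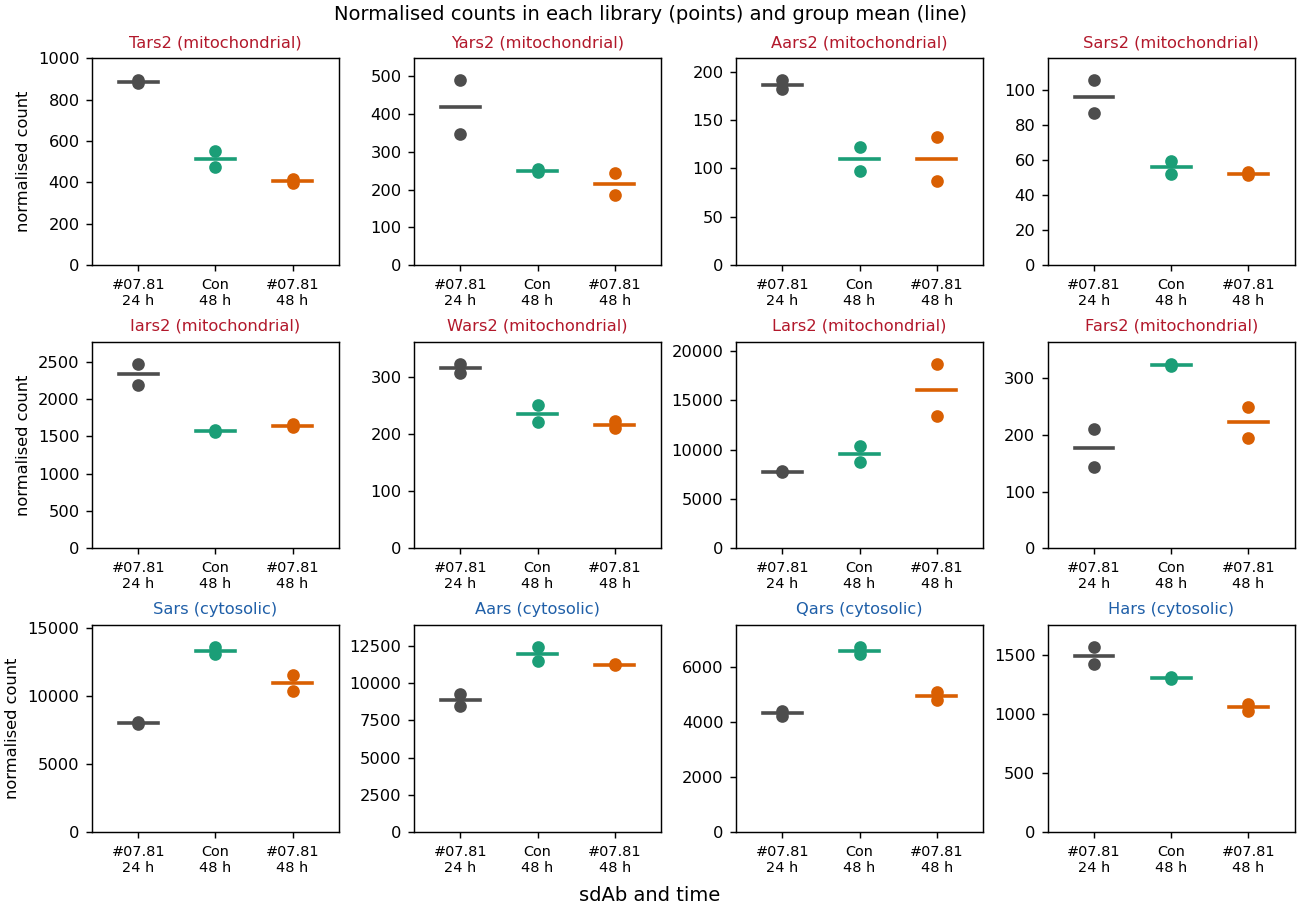
Normalised counts of 12 genes in the 2 libraries of each group (points) with the group mean (line); every y axis starts at 0 and is linear. *Tars2* lies at 881.6 to 894.6 at 24 h and at 550.4 or less at 48 h, *Lars2* reaches 18691.2 in sdAb#07.81 (48 h), and *Qars* is highest in sdAb-Con (48 h).

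At 48 h the antibodies can be compared at the same time. Of the 38 genes, 2 were higher and 1 was lower in sdAb#07.81, beside 6.4% of all tested genes higher and 3.66% lower. *Qars* was lower, with 4800.6 and 5060.6 normalised reads against 6705.5 and 6457.1. Its libraries did not overlap, and its log2 fold change was -0.42 ± 0.10 (SE) (adjusted p = 0.0165). *Lars2* was higher, with 18691.2 and 13393.6 normalised reads against 8759.7 and 10378.9, and its log2 fold change was 0.73 ± 0.13 (SE) (adjusted p = 0.00246). In the other whole-number solution of *Lars2* the value was 1.04 with an adjusted p of 0.327. *Mars2* (ENSMUSG00000046994), the mitochondrial methionine enzyme, was higher, with 379.5 and 345.6 normalised reads against 241.4 and 264.8 and a log2 fold change of 0.52 (adjusted p = 0.0393). Its longest transcript, of 11294 bases, is the longest of the mitochondrial set, and after subtraction of the trend over transcript length, GC and abundance its log2 fold change was -0.03 (adjusted p = 0.933).

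None of these 3 calls passed without library 1 of sdAb#07.81 (48 h), when *Qars* had a log2 fold change of -0.385 (adjusted p = 0.192), *Lars2* 0.48 (adjusted p = 0.0746) and *Mars2* 0.45 (adjusted p = 0.402), and 217 of all tested genes were called in place of 1402. None passed without library 1 of sdAb-Con (48 h) either, and without library 2 of sdAb-Con (48 h) 1 passed, *Lars2*.

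All 20 cytosolic genes had a negative log2 fold change, from -0.42 for *Qars* to -0.02 for *Iars*, with a median of -0.17 beside -0.02 over all genes tested, while 19 of 20 were negative with total-count or upper-quartile scaling and 16 of 20 after subtraction of the trend. Without library 1 of sdAb#07.81 (48 h) 19 were negative, with a median of -0.13, and without library 2 of sdAb-Con (48 h) 18, with a median of -0.11. Of the 20 genes, 6 had an unadjusted p under 0.05, beside 3716 of all 13941 tested, a similar share. After removal of the trend the cytosolic median was -0.07 and no cytosolic gene passed. The 17 mitochondrial genes had a median of -0.09, with 13 below 0, but of 0.03 with 7 below 0 without library 2 of sdAb-Con (48 h). *Tars2* had a log2 fold change of -0.33 ± 0.14 (SE) (adjusted p = 0.143), and *Fars2* had -0.56 with a standard error of 0.19 (adjusted p = 0.0629). *Aars2* and *Pars2*, for proline, were nearest to 0, with -0.01 and -0.02 and standard errors of 0.24 and 0.21. *Wars* had -0.26 (adjusted p = 0.139), *Aars* -0.09 (adjusted p = 0.64) and *Pstk* -0.36 (adjusted p = 0.117). *Pstk* passed after subtraction of the trend, at -0.60 (adjusted p = 0.0299), and *Fars2* passed with only the 4 libraries compared (adjusted p = 0.0199) and without library 2 of sdAb#07.81 (48 h), at -0.74 (adjusted p = 0.0491).

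The mitochondrial set can be put against the cytosolic set within each library, which leaves the scaling between libraries out. The outcome depended on *Lars2*. With it, summed mitochondrial counts were 14.4% of summed cytosolic counts in both libraries of sdAb#07.81 (24 h), 12.5% and 14.2% in sdAb-Con (48 h), and 23.6% and 17.9% in sdAb#07.81 (48 h). The sdAb#07.81 (48 h) libraries were then the highest, but these values use the kept solution of *Lars2*. In the other solution *Lars2* had 4354.3 normalised reads in library 1 of that group, below 7798.5 and 5110.9 at 24 h. The order did not hold there. Leaving *Lars2* out was chosen after the data were seen. Without it, summed mitochondrial counts were 7.4% and 7.49% of summed cytosolic counts in sdAb#07.81 (24 h). They were 5.21% and 5.71% in sdAb-Con (48 h), and 5.94% and 5.79% in sdAb#07.81 (48 h). In these sums without *Lars2*, both 24 h libraries lay above all 4 of the 48 h libraries, and both sdAb-Con libraries lay below those of sdAb#07.81 (48 h). In sums of normalised counts, the mitochondrial genes without *Lars2* went from 8188.2 and 8349.4 at 24 h to between 6277 and 7001.3 at 48 h. With the kept solution of *Lars2*, they went from 15981.4 and 16090.6 to 15055.6 and 17380.3 in sdAb-Con and 24968 and 19800.9 in sdAb#07.81. The cytosolic genes went from 110602.9 and 111474 to between 105746 and 122707.2. The sums weigh abundant genes most, *Iars2* foremost on the mitochondrial side.

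**Figure D4:**
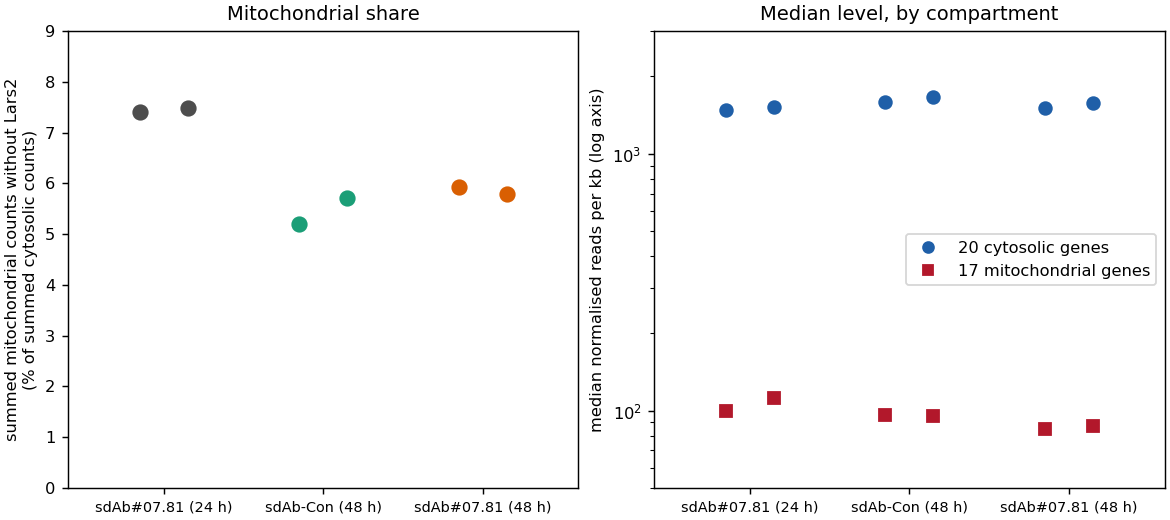
Left, summed normalised counts of 16 mitochondrial genes (*Lars2* left out) as a percentage of those of 20 cytosolic genes, in each of 6 libraries; right, median normalised reads per kb of each compartment on a log axis. The 24 h libraries stand at 7.4% and 7.49% and the 48 h libraries between 5.21% and 5.94%. With the kept solution of *Lars2* the sdAb#07.81 (48 h) libraries would stand highest, at 23.6% and 17.9%. That order does not hold with its other solution.

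Roles within the cytosolic set were compared next. The 12 genes that general knowledge links to ATF4 (*Aars*, *Cars*, *Eprs*, *Gars*, *Iars*, *Lars*, *Mars1*, *Nars*, *Sars*, *Tars*, *Wars* and *Yars*) were counted as a group. In sdAb#07.81 (48 h) against 24 h, 2 were higher, 4 were lower and 6 did not pass, with a median log2 fold change of -0.06 (all genes tested, 21.1% higher and 22.1% lower). That median ranged from -0.10 to -0.02 when 1 library was left out. In sdAb-Con (48 h) against 24 h, 4 were higher, 1 was lower and 7 did not pass, with a median of 0.07 (all genes, 25.4% higher and 26.1% lower). After subtraction of the trend 5 were higher and 4 lower, with a median of -0.06. Against sdAb-Con at 48 h none passed, and the median was -0.17 with all 12 below 0. The other 8 cytosolic genes had medians of -0.16, -0.04 and -0.14 in the same order, and 3 of them fell in the first of these comparisons. Of the 5 genes with a TGATGNAA match, *Aars* was higher in both comparisons with 24 h, *Yars* only passed for sdAb-Con, *Gars* and *Tars* fell in sdAb#07.81 over time and *Iars* did not pass in any.

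The multi-synthetase complex holds several of the cytosolic enzymes on the scaffold proteins AIMP1, AIMP2 and AIMP3, the last encoded by *Eef1e1*. Of its 8 enzymes, 3 fell and 5 did not pass in sdAb#07.81 (48 h) against 24 h, with a median of -0.12, where 22.1% of all tested genes fell. The scaffolds moved apart from each other. *Aimp1* rose from 1689.1 and 1556.7 to 1995.7 and 2479.4 normalised reads (log2 fold change 0.46, adjusted p = 0.00537), and in sdAb-Con (48 h) it had 2965.3 and 2655.2 (0.79 against 24 h, adjusted p = 2.57e-05). *Aimp2* fell from 535.5 and 435.1 to 289.9 and 331.4 (log2 fold change -0.64, adjusted p = 0.0031), and *Eef1e1* fell with a log2 fold change of -0.39 (adjusted p = 0.0218). For sdAb#07.81 over time, the rise of *Aimp1* did not pass without library 2 of sdAb#07.81 (48 h). Not both decreases passed without library 1 of either group. Against sdAb-Con at 48 h the 3 scaffolds had log2 fold changes of -0.34, -0.37 and -0.17, and none passed, though 1 passed as lower after subtraction of the trend. By fold of the catalytic domain, class I genes had medians of -0.12 and 0.00 and class II genes -0.17 and -0.03 in sdAb#07.81 (48 h) and sdAb-Con (48 h) against 24 h.

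The wider ATF4 pathway was read from 20 genes outside the synthetases. In sdAb#07.81 (48 h) against 24 h, 9 rose, 3 fell and 8 did not pass, with a median log2 fold change of 0.09, beside 21.1% of all tested genes that rose and 22.1% that fell. With 1 library left out, that median ranged from 0.02 to 0.14. In sdAb-Con (48 h) against 24 h the counts were also 9, 3 and 8, with a median of 0.15, beside 25.4% higher and 26.1% lower among all genes. *Atf4* itself had 5327.1 and 5399.6 normalised reads against 6861 and 6002.9, a log2 fold change of -0.26 that did not pass (adjusted p = 0.0578). *Ddit3*, which encodes CHOP, went from 922.1 and 884.5 to 4945.5 and 5786.8, and *Asns*, asparagine synthetase, from 6045.4 and 6151.1 to 8241.4 and 9463.8 (log2 fold changes 2.57 and 0.53). *Shmt2* and *Slc7a11*, of mitochondrial serine metabolism and cystine import, fell, with log2 fold changes of -1.01 and -1.72. *Xpot*, the tRNA export receptor, fell with -0.38. Against sdAb-Con at 48 h, 6 of the 20 were lower in sdAb#07.81 and none higher (3.66% and 6.4% of all genes), among them *Ddit3* with -0.61, *Chac1* with -0.62 and *Ddit4* with -0.79. With the trend removed 1 was lower. When 1 library was left out, *Ddit4* lay between -1.01 and -0.56, and no gene of the list passed in every such fit.

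Other genes of mitochondrial translation, 13 in number, had a median log2 fold change of -0.07 in sdAb#07.81 (48 h) against 24 h and 0.01 in sdAb-Con (48 h) against 24 h. In the first, *Tufm*, the mitochondrial elongation factor Tu, fell from 1307.9 and 1147.4 to 800.8 and 882.6 normalised reads (log2 fold change -0.54, adjusted p = 0.00163), *Mtfmt*, which formylates the initiator tRNA, rose (0.61) and 11 did not pass, beside 21.1% of all genes that rose and 22.1% that fell. In the second, 3 were higher and none lower, beside 25.4% of all genes higher and 26.1% lower, and after subtraction of the trend 1 was higher and 1 lower. Against sdAb-Con at 48 h *Tufm* was lower in sdAb#07.81, with a log2 fold change of -0.45 (adjusted p = 0.0275), 12 did not pass, and the median was -0.14, beside 3.66% of all genes lower. *Tufm* did not pass after subtraction of the trend. With 1 library left out its log2 fold change lay between -0.54 and -0.38. It then passed only without library 2 of sdAb#07.81 (48 h). Whether these genes differ from the mitochondrial synthetases was not tested. Of the synthetase-like and editing genes, 5 of 6 passed the count minimum. *Prorsd1*, a prolyl-tRNA editing homologue, went from 102 and 88.0 normalised reads at 24 h to 151.2 and 198.0 in sdAb#07.81 (48 h), a log2 fold change of 0.86 (adjusted p = 0.00342), and to 195.4 and 168.9 in sdAb-Con (48 h), with 0.94 (adjusted p = 0.00122). *Dtd1* and *Dtd2*, of the same list, passed in sdAb-Con (48 h) against 24 h with 0.85 and 0.60. On the selenocysteine route, *Sephs2*, which makes selenophosphate, fell in sdAb#07.81 (48 h) against 24 h, with a log2 fold change of -0.62, and *Secisbp2*, which reads the selenocysteine signal, fell with -0.53, while *Sepsecs*, the enzyme that follows *Pstk*, did not pass (0.18, adjusted p = 0.329).

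Interferon genes are given because *Wars* responds to interferon. All 12 on the list rose in sdAb#07.81 over time and were higher in sdAb-Con (48 h) than at 24 h, with median log2 fold changes of 3.77 and 2.90, beside 21.1% and 25.4% of all genes higher. Against sdAb-Con at 48 h 11 of 12 were higher, beside 6.4% of all genes, with a median of 1.19, while *Wars* had -0.26. When 1 library was left out the median lay between 0.99 and 1.44, and fewer passed without some of the libraries. The part of interferon in the level of *Wars* was not tested.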

How the data were processed

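RNA-seq values came from 2 tables, each over 4 libraries in 2 groups. Per the submitters' notes, cutadapt 1.9.1, HISAT2 2.0.1 and HTSeq 0.6.1 were used, with the human build GRCh38.p14 named although the gene identifiers are mouse, so no coordinates of the tables are printed. Strand use in counting is not given in the sources used here. The deposited signal is, for each gene, the authors' mean over the 4 libraries of read counts divided by size factors, printed to 15 significant digits. The tables also hold the authors' own fold changes and p-values, which were not used. The number of further columns with values per library was 0.

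A gene with 1 read in 1 library shows what that read is worth, and the tables share the sdAb#07.81 (48 h) libraries. Whole counts of 6 libraries that give both means were searched for (lattice reduction, sympy 1.14.0). They were unique within the range searched for 28597 of 28712 genes (99.6%), chosen by 2-fold agreement of replicates for 95, and unsolved for 20, none a synthetase, which held 10.8% and 8.35% of the summed means of the tables and were left out. Size factors made anew from the solved counts differed from the deposited ones by at most 0.00034 in relative terms. A library was assigned to a group only by the tables it occurs in, and the control group at 48 h, which the tables call by another name, was read as sdAb-Con (48 h).

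Solved counts of genes with a mean of at least 10 were tested with limma-voom (limma 3.58.1, R 4.3.3) over 6 libraries with group as the only term, median-of-ratios size factors, two-sided p-values and Benjamini-Hochberg adjustment over 13941 genes. Nothing says that replicates were separate cultures, so p-values may measure technical spread only. The median standard error of a log2 fold change was 0.152, 0.152 and 0.15 in the 3 comparisons. Lengths are those of GENCODE M21. Alternatives changed the scaling, the filter, the fit, the libraries or the solution of *Lars2*, or subtracted a cubic trend over transcript length, GC and abundance. Both the solving and the tests were tested on simulated data. The genes, lists and rules were chosen with earlier results of these data known. Genes with full values were the called members with the largest and the members with the smallest change in each comparison, and *Wars*, *Aars*, *Asns*, *Atf4* and *Nupr1*. Scripts ran in Python 3.11.15 with scipy 1.17.1, pandas 2.3.3 and numpy 2.4.6, and plots in matplotlib 3.10.9. Some single items are not reported here, in the text or the plots, but are part of the counts and medians.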

Additional observations from a re-analysis of the deposited data

How the results depend on the processing

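Of the 36 calls of single genes over the 3 comparisons, 17 passed under each alternative scaling, filter, fit and set of libraries, a minimum fold change aside, none of them in sdAb#07.81 (48 h) against sdAb-Con (48 h), 7 in sdAb#07.81 (48 h) against sdAb#07.81 (24 h) and 10 in sdAb-Con (48 h) against sdAb#07.81 (24 h). Among 464 values recomputed for these calls, 405 passed in the same direction, 57 no longer passed and 2 changed sign. Both sign changes were *Mars2* after subtraction of a trend over transcript length, GC and abundance, at -0.0303 against sdAb-Con at 48 h and 0.31 for sdAb-Con (48 h) against 24 h.

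Requiring a fold change of at least 1.5 left 1 synthetase and 595 genes in sdAb#07.81 (48 h) against sdAb-Con (48 h), 5 and 3706 in sdAb#07.81 (48 h) against 24 h, and 7 and 4604 in sdAb-Con (48 h) against 24 h. Against sdAb-Con at 48 h, the number of genes called was 1402 as reported, 554 with no filter on low counts, 2148 with only the 4 libraries compared and 325 after subtraction of that trend, and it ranged from 217 to 1470 when 1 library was left out, with 0 to 3 genes of the set. When 1 library was left out, 10 to 17 genes of the set passed in sdAb#07.81 (48 h) against 24 h and 10 to 16 in sdAb-Con (48 h) against 24 h. A lone library was then taken to vary like the other groups. The ratio of median levels was 20.4 with the median transcript length and 16.4 with the longest. The cause of these shifts was not tested. Alternatives with only uniquely solved genes or with the other solution of *Lars2*, chosen after the data were seen, took *Lars2* out of the calls and no other gene of the set. Calls were also gained: in sdAb-Con (48 h) against 24 h, *Farsa*, *Lars*, *Rars* and *Tars* passed as lower with total-count or upper-quartile scaling and after subtraction of the trend, when 23 genes of the set passed in place of 16. The quasi-likelihood test of edgeR was planned only for counts deposited as a column and was not run on the solved counts. No paired analysis was possible because the solved libraries carry no replicate numbers of the labels. With 2 libraries a group, changes of low genes such as *Sars2* and *Ears2* have standard errors of 0.20 or more.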
